A study of Drosophila melanogaster with 9 samples.

Results

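The genes described here are the fly's sodium- and potassium-coupled chloride cotransporters NKCC, Ncc69 and kcc, and the kinases Wnk and fray with the scaffold protein Mo25, which act on such cotransporters. They were chosen by name, not by a measured value, though earlier results of these data were known. They are 6 of the 17611 genes in the count table. Their 6 FlyBase identifiers were each found once, and 6 of 6 passed the filter on low counts that left 10253 genes for testing.

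Cation-chloride cotransporters move chloride across the cell membrane together with sodium, potassium or both. Members of the NKCC type carry all of these ions into the cell, whereas potassium-chloride cotransporters such as kcc usually let potassium and chloride out. In the fly's Malpighian tubule, the renal organ that makes primary urine by secreting ions, Ncc69 on the basolateral side of the main secretory cells (the principal cells) brings in ions for secretion. Wnk is a chloride- and potassium-sensitive kinase that phosphorylates fray, the fly counterpart of the mammalian kinases SPAK and OSR1; fray in turn phosphorylates and activates Ncc69, and Mo25 enhances the activity of fray. These steps act on the proteins, which RNA levels do not show.

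RNA was sequenced from Malpighian tubules of Drosophila melanogaster in 3 groups of 3 libraries, each library made from poly-A RNA of 80 tubules. The transgenes esg-Gal4 and tub-Gal80ts, together with UAS-GFP, were common to all 3 groups; the esg promoter, active in progenitor cells of the gut and in renal stem cells, drives transgenes once warming inactivates the Gal80 repressor. Control flies carried this driver alone. In the yki3SA group UAS-Yki-3SA was added, which encodes a constitutively active Yorkie, a transcriptional coactivator that promotes growth, and produces a gut tumour, and the yki3SA+ITP-i group carried UAS-Yki-3SA with an RNA interference transgene against ITP, a hormone of the ion transport peptide family. Virgin progeny were held at 18 °C for 6 to 8 days and then induced at 29 °C for 8 days. No group with a neutral interference transgene was analysed here. The control and yki3SA libraries are marked in the labels as a re-analysis and the yki3SA+ITP-i libraries are not, so that an effect of ITP knockdown and a difference between these sets of libraries cannot be told apart. The labels do not say that the libraries of a group came from separate cultures, and p-values measure the spread between these libraries, which may be technical.

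Library totals ran from 34640437 to 49338340 counts, and the 6 genes received between 252 and 17210 counts per library. Levels are given as CPM (a count as a rate per library total) scaled by edgeR's TMM factors, as mean ± SD over 3 libraries. A difference was called at a Benjamini-Hochberg adjusted p under 0.05 in edgeR's quasi-likelihood test over the 10253 genes. The 3 comparisons share libraries pairwise and are not independent. In yki3SA against control, 16.2% of the tested genes were called higher and 14.0% lower. In yki3SA+ITP-i against yki3SA, 10.6% were called higher and 10.1% lower, and in yki3SA+ITP-i against control 6.37% and 4.14%. Of the tubule's own markers, ct, a transcription factor of principal cells, and tsh, one of stellate cells, were at 312 and 61.3 CPM in control tubules. In yki3SA they were at 316 and 49.2 CPM, and in yki3SA+ITP-i at 386 and 47.6 CPM. Not every marker listed was present: tup and Rdl of the stellate cell list were near 0 in each group, at 0.0692 and 0.260 CPM in control tubules. The interference target ITP itself had a level of 37.0 ± 6.70 CPM in the control group, of 68.4 ± 10.4 CPM with the tumour and of 58.6 ± 6.21 CPM with the tumour and ITP knockdown. It was called higher than control in yki3SA (log2 fold change 0.89, adjusted p = 0.00302) and in yki3SA+ITP-i (0.67, adjusted p = 0.0269). The 2 tumour groups did not differ by the test (-0.22, adjusted p = 0.348). The labels place the transgene under the esg driver, and esg was at 2.88 to 5.71 CPM on average, so that ITP in whole tubules is not a check of the knockdown in the cells that expressed it.

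NKCC had the largest fold change of the 6 genes in both comparisons that involve yki3SA. Its level was 28.7, 24.2 and 32.6 CPM in the control libraries, 287, 371 and 288 CPM in the yki3SA libraries and 42.6, 45.5 and 44.2 CPM in the yki3SA+ITP-i libraries. The 3 groups did not overlap at any point: every yki3SA library was far above the other 6, and every yki3SA+ITP-i library was above every control library. NKCC was 11.1-fold higher in yki3SA than in control tubules (log2 fold change 3.47, SE 0.15, 95% interval 3.13 to 3.81, adjusted p = 9.03e-07), the 10th smallest p of 10253 genes, and ranked 92nd by the size of its rise.

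With ITP knockdown NKCC was 7.15-fold lower than in yki3SA alone (log2 fold change -2.84, SE 0.15, 95% interval -3.17 to -2.5, adjusted p = 1.43e-05), the 2nd smallest p of that comparison. It remained 1.55-fold higher than in control (log2 fold change 0.63, SE 0.14, 95% interval 0.32 to 0.95, adjusted p = 0.019). This last call was lost when control library 1 or 2, or yki3SA+ITP-i library 1 or 2, was left out, with log2 fold changes of 0.52 to 0.66 and adjusted p between 0.057 and 0.071; over its 22 alternative settings the adjusted p ran from 0.0018 to 0.071. NKCC lies at 3R:5489505-5502702 on the minus strand in the Ensembl annotation of BDGP6.54. It has 11 merged exons (overlapping annotated exons joined) of 3963 bp in all. In bulk tubules, a change in the number of cells that express a gene and a change in RNA per cell cannot be told apart.

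**Figure D1:**
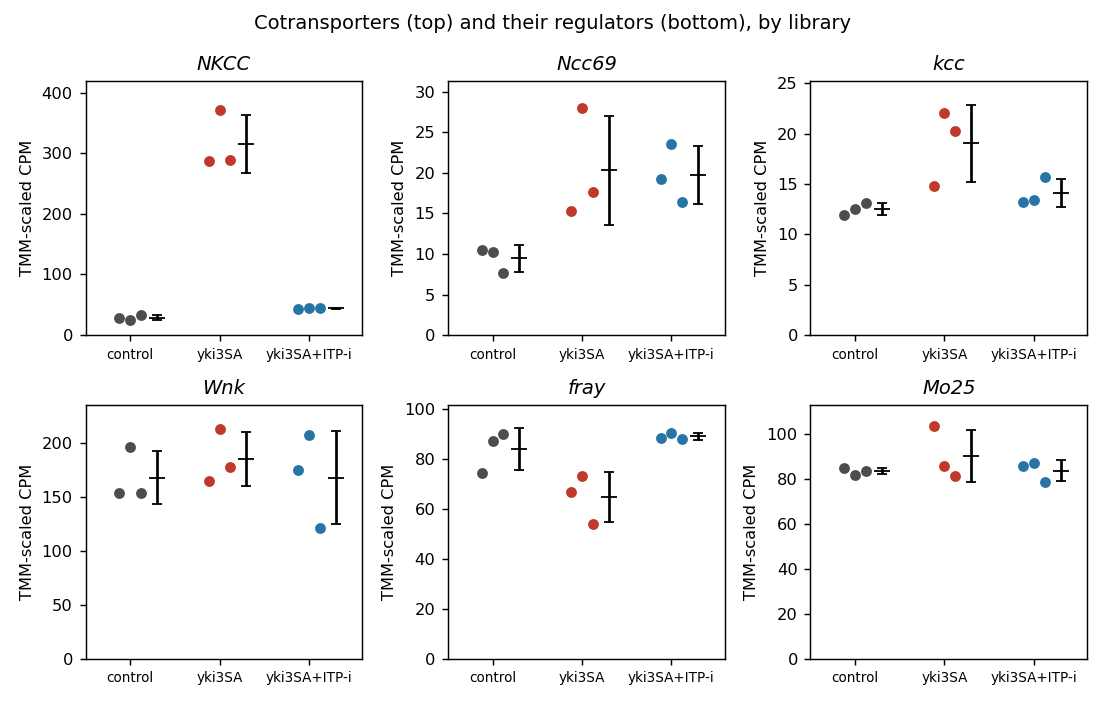
Level of each of the 6 genes in TMM-scaled CPM (y axis) in the 3 libraries of each group (x axis); points are libraries and the bar with its error is the mean ± SD of 3 libraries. NKCC separates the 3 groups, with yki3SA at 287 to 371 CPM, while Wnk and Mo25 overlap in every pair of groups.

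Ncc69, the cotransporter that Wnk and fray are known to regulate in this organ, was high in both tumour groups. The control libraries gave 10.5, 10.2 and 7.60 CPM, the yki3SA libraries 15.3, 28.0 and 17.6 CPM, and those with ITP knockdown 19.2, 23.5 and 16.4 CPM. Both tumour groups lay above all control libraries and overlapped each other. Ncc69 rose 2.15-fold in tumour-bearing flies against control (log2 fold change 1.10, SE 0.25, 95% interval 0.56 to 1.65, adjusted p = 0.00824) and 2.08-fold in yki3SA+ITP-i against control (1.06, SE 0.25, 95% interval 0.51 to 1.61, adjusted p = 0.022). Between yki3SA+ITP-i and yki3SA the log2 difference was -0.04, with a 95% interval from -0.58 to 0.49 (adjusted p = 0.923).

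The yki3SA mean of Ncc69 was raised by library 2; without it the log2 fold change against control was 0.77 (adjusted p = 0.028). The rise in yki3SA+ITP-i was no longer called without control library 1 or 3 or yki3SA+ITP-i library 1 or 2, with log2 fold changes from 0.90 to 1.13 and adjusted p from 0.053 to 0.09; over 22 alternatives the adjusted p ran from 0.0013 to 0.09. The gene lies at 3L:12368646-12391444 on the minus strand, with 20 merged exons and 5047 bp of merged exon sequence.

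The potassium-chloride cotransporter kcc had the smallest rise of the 3 cotransporters in yki3SA. It was at 11.9, 12.6 and 13.1 CPM in control libraries, at 14.8, 22 and 20.3 CPM in yki3SA libraries, and at 13.2, 13.4 and 15.7 CPM in those with ITP knockdown. Every yki3SA library was above every control library, and the 2 tumour groups overlapped. The 1.52-fold rise in yki3SA was called (log2 fold change 0.61, SE 0.17, 95% interval 0.23 to 0.98, adjusted p = 0.0216). Its difference between yki3SA+ITP-i and yki3SA was -0.43 on the log2 scale (95% interval -0.80 to -0.06, adjusted p = 0.0907), and that between yki3SA+ITP-i and control 0.17 (95% interval -0.20 to 0.54, adjusted p = 0.593).

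The call on kcc did not hold when any 1 of the 3 control libraries, or yki3SA library 2 or 3, was left out, with log2 fold changes of 0.46 to 0.61; over 22 alternatives its adjusted p ran from 0.0058 to 0.69. The gene lies at 2R:23907654-23925066 on the plus strand with 25 merged exons. Of its 4946 bp of merged exon sequence, 158 bp, or 3.19%, are shared with the opposite-strand RNA gene asRNA:CR44806, which was under 0.5 CPM on average in each group.

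Of the 3 cotransporters, 3 were called higher and 0 lower in yki3SA against control, beside 16.2% and 14.0% of all tested genes. With ITP knockdown against yki3SA, 0 were called higher and 1 lower, beside 10.6% and 10.1%. In yki3SA+ITP-i against control 2 were called higher and 0 lower, beside 6.37% and 4.14%. The median log2 fold changes of the 3 were 1.10, -0.43 and 0.63, beside 0.07, -0.04 and 0.00 over all tested genes.

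Of the 3 regulators, Wnk and Mo25 were not called in any comparison, whereas fray was called in yki3SA+ITP-i against yki3SA. Wnk, the upstream kinase, was at 153, 196 and 154 CPM in control libraries, at 165, 213 and 178 CPM in yki3SA libraries and at 175, 207 and 121 CPM in those with ITP knockdown. The groups overlapped in each comparison, and the spread was widest in yki3SA+ITP-i. The log2 difference was 0.14 (95% interval -0.29 to 0.58, adjusted p = 0.625) in yki3SA against control and -0.14 (95% interval -0.58 to 0.30, adjusted p = 0.646) in yki3SA+ITP-i against yki3SA. The difference between yki3SA+ITP-i and control was 0.00, with a 95% interval of -0.44 to 0.44. Wnk lies at 3L:21543850-21554928 on the minus strand, with 8262 bp of sequence in 13 merged exons.

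The kinase fray, which phosphorylates the cotransporters, was lowest in yki3SA tubules. The yki3SA libraries gave 66.9, 73.3 and 53.9 CPM, the control libraries 74.2, 87.3 and 89.9 CPM, and those with ITP knockdown 88.2, 90.4 and 88.1 CPM. All 3 yki3SA libraries were below those of both other groups, which overlapped each other. Against control, yki3SA was at -0.37 on the log2 scale (SE 0.13, 95% interval -0.66 to -0.09), which missed the threshold with an adjusted p of 0.0503. With ITP knockdown fray was 1.37-fold higher than in yki3SA (log2 fold change 0.46, SE 0.13, 95% interval 0.17 to 0.74, adjusted p = 0.0311). The difference between yki3SA+ITP-i and control was 0.09 (95% interval -0.20 to 0.37, adjusted p = 0.743).

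Both fray values varied with the scaling, in size and in call. With DESeq2 size factors the yki3SA difference was -0.42 and the ITP knockdown difference 0.49, and with upper-quartile factors they were -0.44 and 0.51, each of them called. With library totals alone the yki3SA difference was -0.09 and the ITP knockdown difference 0.27, neither of them called, and the latter call was also lost without yki3SA library 1 or 3 or any 1 yki3SA+ITP-i library, at log2 fold changes of 0.35 to 0.50; its adjusted p ran from 0.0071 to 0.93 over 22 alternatives. The gene lies at 3R:18573091-18589459 on the plus strand with 8 merged exons. Of its 4423 bp of merged exon sequence, 567 bp, or 12.8%, are shared with CG7694 on the same strand. CG7694 moved the opposite way, from 7.75 ± 0.622 CPM in control tubules to 16.5 ± 1.71 CPM in those of yki3SA and 9.84 ± 1.47 CPM with ITP knockdown (adjusted p = 0.00093 and 0.0105 for the successive steps), and how reads in the shared stretch were assigned is not given in the sources used here.

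Mo25, the scaffold, gave 84.8, 82.1 and 83.9 CPM in control libraries, 104, 86.0 and 81.4 CPM in yki3SA libraries and 85.9, 87.3 and 78.6 CPM in those with ITP knockdown. The groups overlapped in each comparison. The log2 differences were 0.11 (95% interval -0.13 to 0.35), -0.11 (95% interval -0.35 to 0.14) and 0.00 (95% interval -0.24 to 0.25) in the order of the comparisons above. With library totals alone the first and second became 0.40 (adjusted p = 0.0073) and -0.30 (adjusted p = 0.034), both called; that scaling moved the median log2 fold change of all tested genes in yki3SA against control from 0.0719 to 0.3664, and in yki3SA+ITP-i against yki3SA from -0.0423 to -0.244. Mo25 is a gene of 1 merged exon at 3L:16613218-16615472 on the minus strand.

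**Figure D2:**
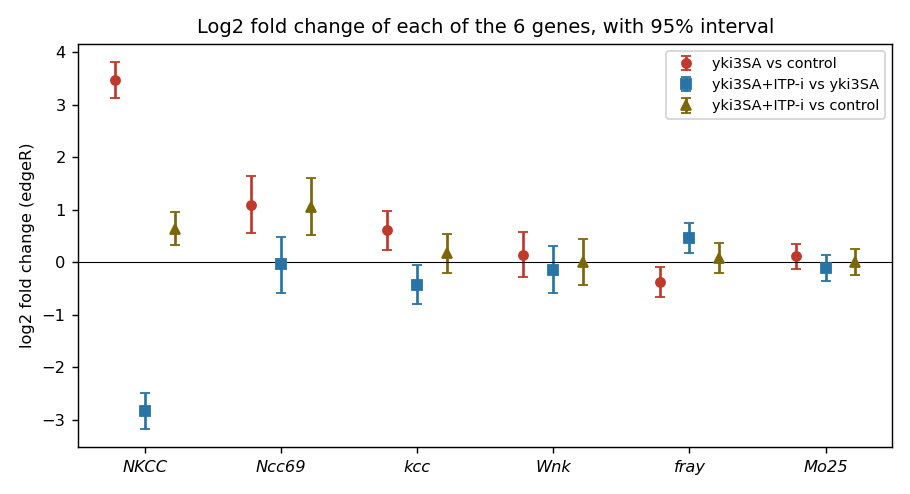
Log2 fold change of each of the 6 genes (y axis) with its 95% interval in the 3 comparisons, from edgeR's fit of the 9 libraries. NKCC lies at 3.47 in yki3SA against control and at -2.84 in yki3SA+ITP-i against yki3SA, whereas the intervals of Wnk and Mo25 include 0 in each comparison.

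Per length of exon sequence, the order of the 6 genes changed between groups. Levels per kilobase (RPKM, TMM-scaled CPM divided by merged exon length) were highest for Mo25 in control tubules at 37.1 ± 0.608, followed by Wnk at 20.3 ± 2.99 and fray at 18.9 ± 1.90, which overlapped. NKCC came next at 7.19 ± 1.05 RPKM, then kcc at 2.53 ± 0.123 and Ncc69 at 1.87 ± 0.318 RPKM, with no overlap between these neighbours.

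In yki3SA tubules NKCC was first of the 6 at 79.6 ± 12.1 RPKM, above Mo25 at 40.1 ± 5.19, Wnk at 22.4 ± 3.05 and fray at 14.6 ± 2.23 RPKM, each separated from the next. Ncc69 at 4.02 ± 1.33 and kcc at 3.84 ± 0.765 RPKM were last and overlapped. In yki3SA+ITP-i tubules NKCC was again at a lower place, with 11.1 ± 0.363 RPKM, behind Mo25 at 37.2 ± 2.07 and the overlapping pair of Wnk and fray at 20.3 ± 5.24 and 20.1 ± 0.297 RPKM. Ncc69 at 3.90 ± 0.711 RPKM then lay above kcc at 2.85 ± 0.284 RPKM in each library, the reverse of their order in control tubules.

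The summed level of the 3 cotransporters per length was 11.7, 10.7 and 12.4 RPKM in control libraries, 78.4, 104 and 80.3 RPKM in yki3SA libraries and 17.2, 18.8 and 17.6 RPKM in those with ITP knockdown. NKCC made up 61.7%, 57.3% and 66.4% of that sum in control libraries, 92.3%, 90.4% and 90.5% in yki3SA libraries and 62.4%, 60.9% and 63.4% in those with ITP knockdown. The share was thus higher in each yki3SA library than in the other 6 libraries, while yki3SA+ITP-i and control overlapped. In percentage points, yki3SA was 29.3 above control (two-sided exact permutation test over libraries, p = 0.1) and yki3SA+ITP-i 28.8 below yki3SA (a difference of -28.8, p = 0.1). With 3 libraries against 3 the smallest p this test allows is 0.1, so that neither can pass 0.05. The share differed by 0.457 points between yki3SA+ITP-i and control (exact permutation test, p = 0.9).

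The ratio of NKCC to Ncc69 within each library, which does not depend on library scaling, gave the same contrast. The log2 ratio per length was 1.80, 1.60 and 2.45 in control libraries, 4.58, 4.08 and 4.38 in yki3SA libraries and 1.5, 1.30 and 1.78 in those with ITP knockdown. NKCC was therefore 3.85 times Ncc69 in control, 20.3 times in yki3SA and 2.88 times in yki3SA+ITP-i tubules. The ratio was 5.27-fold higher in yki3SA than in control and 7.05-fold lower in yki3SA+ITP-i than in yki3SA (two-sided exact permutation test, p = 0.1 for each, the smallest possible). The ratio in yki3SA+ITP-i and control differed by -0.419 on the log2 scale with overlapping libraries (exact permutation test, p = 0.2).

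**Figure D3:**
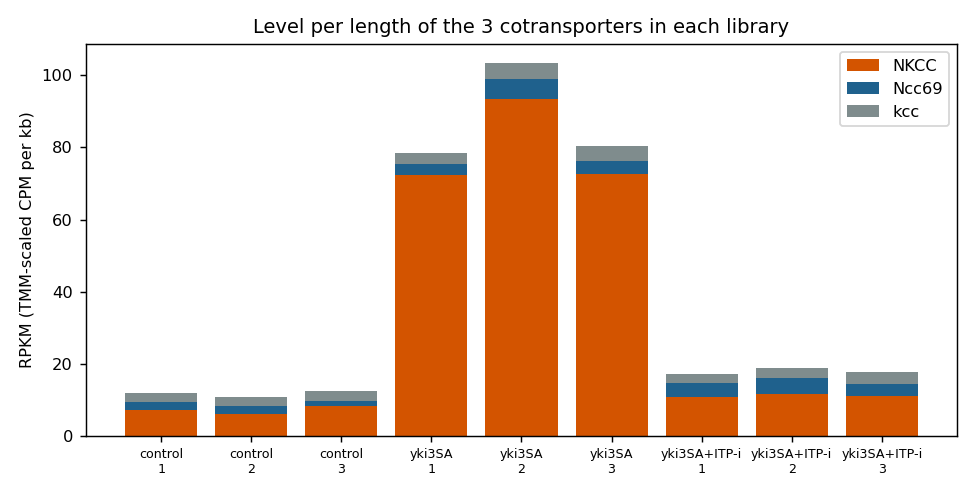
Level per kilobase of merged exon sequence in RPKM (y axis) in each of the 9 libraries (x axis), as stacked bars for NKCC, Ncc69 and kcc. NKCC fills 90.4% to 92.3% of the bar in the yki3SA libraries and 57.3% to 66.4% in the other 6 libraries.

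A pair of further genes of the same transporter superfamily gave other values than NKCC. CG10413, which the deposited annotation assigns to the orthologue group SLC12A9, had levels of 182 ± 42.9, 258 ± 38.2 and 240 ± 28.7 CPM in the order control, yki3SA, yki3SA+ITP-i, and was not called in any comparison (adjusted p = 0.0594, 0.721 and 0.21). CG12773, assigned to the group SLC12A8, was at 283 ± 43.3 CPM in control and fell to 157 ± 29.4 CPM in yki3SA (log2 fold change -0.85, adjusted p = 0.0037). It was at 239 ± 17.1 CPM in yki3SA+ITP-i, higher than in yki3SA (0.60, adjusted p = 0.0261) and without a call against control (adjusted p = 0.405).

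Over all tested genes 16.2% were called higher and 14.0% lower in yki3SA against control. Of 9 genes that act around Wnk, fray and the ion channels they are tied to, 1 was called in that comparison. This was Lkb1, a kinase whose mammalian counterpart forms a complex with those of Mo25 and Stlk. Its level was 26.2 ± 3.33 CPM in control tubules, 43.1 ± 1.35 CPM in yki3SA tubules and 26.1 ± 2.86 CPM with ITP knockdown. It rose in yki3SA (log2 fold change 0.72, adjusted p = 0.00275) and was lower with ITP knockdown than in yki3SA (-0.72, adjusted p = 0.00464). The pseudokinase Stlk was at 21.3 ± 2.64, 26.7 ± 0.708 and 20.4 ± 3.15 CPM, with log2 differences of 0.32 (adjusted p = 0.12) and -0.39 (adjusted p = 0.086). No call was made for the ubiquitin ligase subunit Cul3 (82.2, 88.9 and 87.6 CPM in the same order of groups) or the Kelch protein dbo (25.2, 23.9 and 30.9 CPM). The potassium channel Irk1 (230, 210 and 192 CPM) and the chloride channel ClC-a of stellate cells (532, 427 and 374 CPM) were also not called. The same held for the cyclic GMP genes Gyc76C (0.911, 0.898 and 0.941 CPM), for (83.8, 67.1 and 70.9 CPM) and Pkg21D (13.7, 13 and 12.5 CPM). The median log2 fold changes of the 9 genes were -0.08, -0.05 and -0.06 in the 3 comparisons.

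Among other transporters and channels of the tubule, the calls in yki3SA were all downward, although most of the genes were not called. Of 28 tested genes of this list, 0 were called higher and 10 lower in yki3SA against control, beside 16.2% and 14.0% of all tested genes. Their median log2 fold change was -0.44 beside 0.07 over all tested genes. With ITP knockdown against yki3SA 7 were called higher and 1 lower (median 0.26, all tested genes -0.04), and against control 0 higher and 2 lower (median -0.26, all tested genes 0.00). The inward rectifier potassium channel Irk3 fell from 2754 ± 165 CPM in control to 986 ± 66.3 CPM in yki3SA (log2 fold change -1.48, adjusted p = 3.29e-05). It stayed at 1169 ± 117 CPM with ITP knockdown, below control (-1.24, adjusted p = 0.000179).

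The aquaglyceroporins Eglp2 and Eglp4 fell and then lay higher with ITP knockdown. Eglp2 was at 359 ± 80.9, 54.6 ± 13.4 and 225 ± 38.4 CPM in this order of groups, with log2 fold changes of -2.72 (adjusted p = 4.8e-05) and 2.04 (adjusted p = 0.000473). Eglp4 was at 347 ± 71.0, 80.5 ± 8.46 and 284 ± 64.4 CPM, with log2 fold changes of -2.11 (adjusted p = 8.9e-05) and 1.82 (adjusted p = 0.000462). The bestrophin chloride channel gene Best2 went the same way, at 36.1 ± 8.06, 9.04 ± 0.132 and 28.2 ± 4.30 CPM (-2.0, adjusted p = 5.98e-05, then 1.64, adjusted p = 0.000402).

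The water channel Prip was at 169 ± 4.40, 72.6 ± 6.97 and 123 ± 18.3 CPM, below control in yki3SA+ITP-i as well (-0.46, adjusted p = 0.0452). Ndae1, a sodium-driven anion exchanger, was the 1 gene of the list that fell with ITP knockdown, from 1257 ± 160 CPM in yki3SA to 772 ± 141 CPM (-0.70, adjusted p = 0.0248); in control it was at 933 ± 173 CPM, and its log2 difference of 0.43 in yki3SA was not called (adjusted p = 0.105). Atpalpha, the catalytic subunit of the sodium pump that sets the gradient used by NKCC-type carriers, was named after its values were seen. Its level was 6920 ± 539 CPM in control tubules and 2437 ± 550 CPM in those of yki3SA (log2 fold change -1.51, adjusted p = 0.000257); with ITP knockdown it was 6291 ± 893 CPM (1.37 against yki3SA, adjusted p = 0.000979).

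**Figure D4:**
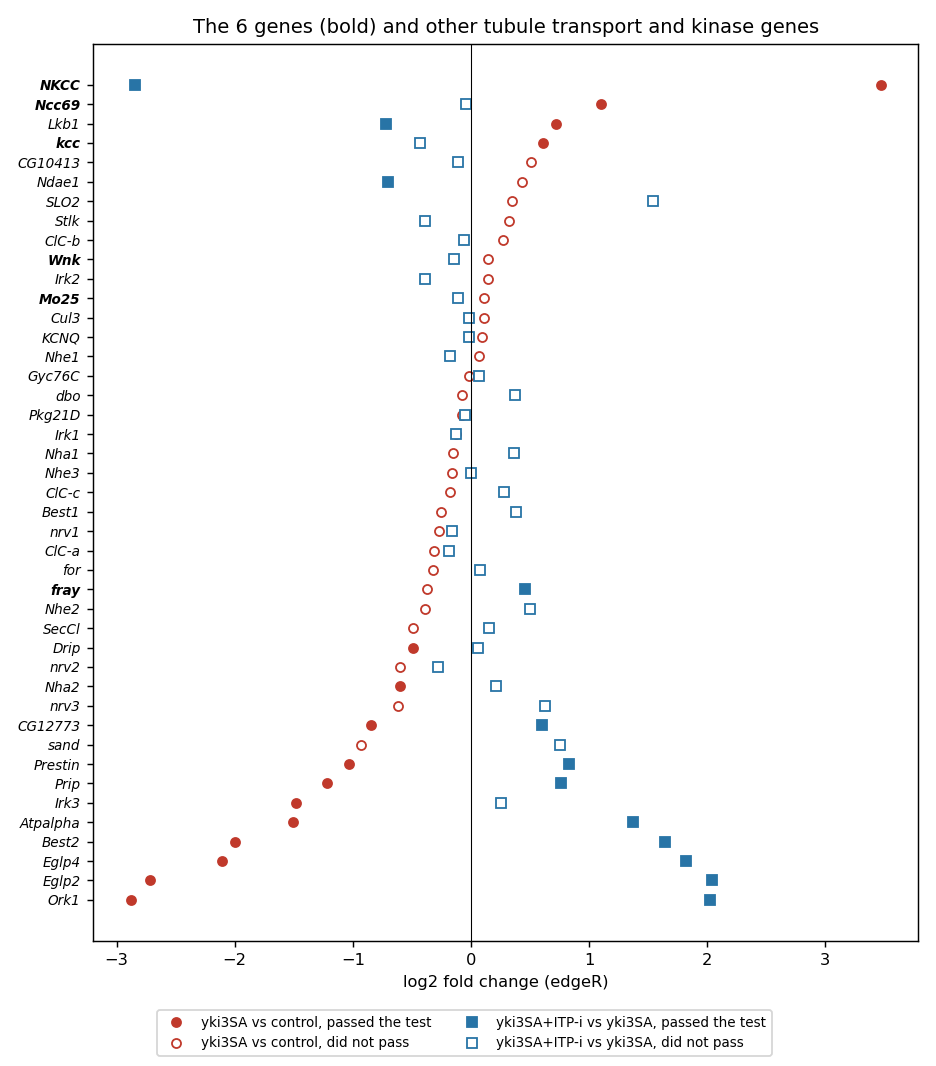
Log2 fold change (x axis) of the 6 genes and of the tested relatives, Wnk partners and transport genes (rows, ordered by the first comparison), in yki3SA against control (circles) and in yki3SA+ITP-i against yki3SA (squares); filled symbols passed the test. NKCC at 3.47 and -2.84 lies at the top, opposite to Eglp2 at -2.72 and 2.04 near the bottom, and of the Wnk partners Lkb1 alone has filled symbols.

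The genes whose levels over the 9 libraries were most like those of NKCC were found from the root-mean-square difference of centred log2(CPM + 0.5) profiles among genes with a mean of at least 5 CPM. Orcokinin, a neuropeptide gene, was nearest at 0.397 log2 units, with 13.5 ± 2.31 CPM in control tubules, 94.1 ± 17.4 CPM in yki3SA tubules and 19.2 ± 2.53 CPM with ITP knockdown. Next came Rpt6R, a gene related to a proteasome subunit, at 0.513 log2 units, with 2.69 ± 0.583, 16.4 ± 2.26 and 2.89 ± 0.413 CPM. CG32032 followed at 0.599, with 2.12 ± 0.888, 10.8 ± 1.57 and 2.71 ± 0.480 CPM. The homeodomain factor ap followed at 0.607, with 6.22 ± 0.861, 38.5 ± 3.41 and 14.3 ± 1.81 CPM, and rgn at 0.627, with 225 ± 48.7, 1072 ± 131 and 352 ± 59.2 CPM. These 5 share the NKCC pattern of a high yki3SA group because they were picked for it, and each is less steep than NKCC.

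For Ncc69 the nearest profiles were those of RyR, the ryanodine receptor, CG8907 and ringer, each at 0.178 log2 units. For kcc they were CG7565 at 0.0829, su(f) at 0.0958 and Tbc1d22 at 0.0985 log2 units. For Wnk they were CG2747 at 0.0847, Smg5 at 0.089 and NAT1 at 0.0909, for fray GramD1B at 0.118, Usp1 at 0.119 and CapaR, the receptor of the diuretic capa peptides, at 0.121, and for Mo25 Acox3 at 0.0508, Arf1 at 0.0522 and Ubc10 at 0.0547. Small differences are easier to reach for genes that vary little, so that these distances are not comparable between the 6 genes.

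**Figure D5:**
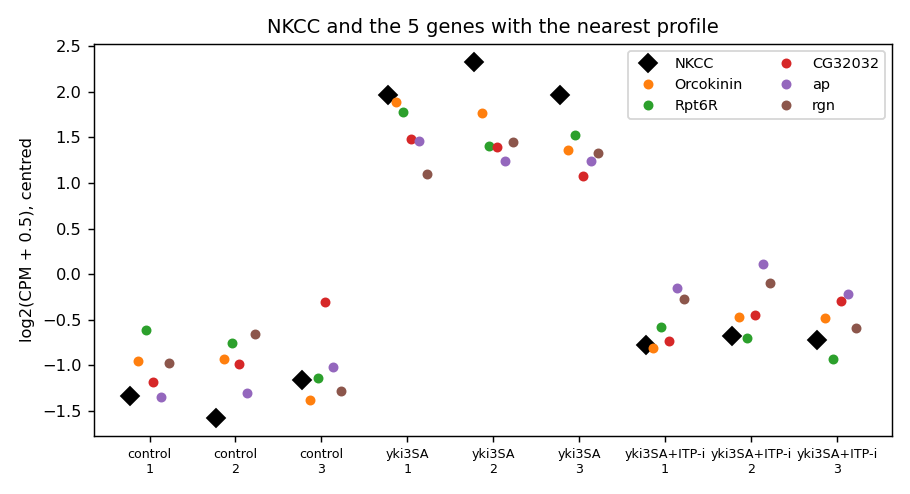
Centred log2(CPM + 0.5) of NKCC and the 5 genes with the most similar profiles in each of the 9 libraries (x axis); each point is 1 gene in 1 library. Every gene is highest in the 3 yki3SA libraries, and NKCC spans the widest range.

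The genes beside NKCC on the chromosome were not called in any comparison. CG31550, on the opposite strand 0.016 kb away, was at 67.9 ± 16.5, 57.9 ± 5.22 and 70.1 ± 21.1 CPM in the 3 groups (adjusted p = 0.489 and 0.419 for the successive steps). Itpr, the inositol trisphosphate receptor gene 14.4 kb away, was at 111 ± 9.11, 85.8 ± 11.5 and 93.2 ± 28.0 CPM (adjusted p = 0.216 and 0.724). Of the 12 nearest tested neighbours of the 6 genes, 2 were called higher and 1 lower in yki3SA against control, 2 higher and 2 lower in yki3SA+ITP-i against yki3SA, and 1 higher and 1 lower in yki3SA+ITP-i against control. The shares over all tested genes were 16.2% and 14.0%, 10.6% and 10.1%, and 6.37% and 4.14%. Counts this small were not tested against these shares. Beside CG7694, the higher one in the first comparison was CG7173, next to Wnk, at 0.170 ± 0.0478, 0.528 ± 0.299 and 2.22 ± 0.209 CPM. The lower one was fru, next to fray, at 5.0 ± 2.45, 1.83 ± 0.725 and 4.88 ± 1.39 CPM.

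Markers of other tissues moved between the same groups as NKCC. Summed over 16 fat body genes, CPM of the library total, without TMM factors, were 4069, 2836 and 5870 in control libraries, 447, 859 and 534 in yki3SA libraries and 3757, 2080 and 2645 in those with ITP knockdown. In yki3SA against control 1 of the 16 was called higher and 9 lower, and in yki3SA+ITP-i against yki3SA 7 higher and 2 lower. The shares of all tested genes were 16.2% higher and 14.0% lower in the former comparison and 10.6% and 10.1% in the latter. Summed over 32 gut enterocyte genes the levels ran from 541 to 1391 in control libraries, 38.5 to 187 with the tumour and 222 to 584 with ITP knockdown. Of 29 tested, 21 were called lower in yki3SA against control and 14 higher in yki3SA+ITP-i against yki3SA; LysS, Npc2e, Jon25Bi, deltaTry and gammaTry were at 0 in the yki3SA libraries, Npc2e also in both other groups and deltaTry also with ITP knockdown. Ovary genes, 19 in all, summed to 132 to 300 in control libraries, 7.59 to 22.5 with the tumour and 46.9 to 154 with ITP knockdown, with 14 called lower and 13 higher in the successive comparisons.

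These sums are lowest where NKCC is highest. With the summed level of the fat body or the gut genes as a covariate, the rise of NKCC in yki3SA was 4.24 or 3.88 on the log2 scale (adjusted p = 0.006 and 0.00043) and its difference with ITP knockdown -3.44 or -3.09 (adjusted p = 0.0036 and 0.0003). Ncc69 in yki3SA was then at 1.38 or 1.51 (adjusted p = 0.76 and 0.22) and kcc at 1.10 or 0.83 (adjusted p = 0.69 and 0.4), larger fold changes than without a covariate but no longer called. The number of called genes in that comparison fell to 26 and 134. The summed level of 10 enteroendocrine genes was highest in yki3SA, as for NKCC, at 24.1 to 27.7 in control libraries, 98.5 to 123 with the tumour and 26.0 to 32.1 with ITP knockdown. Most of that sum in yki3SA was Orcokinin. The defining markers pros and Tk were near 0, at no more than 1.94 CPM in any library. Of 8 tested genes of this list, 2 were called higher and 1 lower in yki3SA against control, beside 16.2% and 14.0% of all tested genes. The median log2 fold change of these 8 genes had the opposite sign to the sum, at -0.23 in yki3SA against control and 0.84 with ITP knockdown against yki3SA. The 2 renal stem cell genes found, Stat92E and esg, had a sum of 229 to 255 in control libraries, 288 to 351 with the tumour and 256 to 285 with ITP knockdown. These sums, taken without TMM factors, did not overlap between groups. Nearly all of each sum was Stat92E. With TMM factors Stat92E was at 256, 289 and 277 CPM, and the 2 tumour groups overlapped. By contrast esg was highest in control, at 5.71, 3.70 and 2.88 CPM. Of the 2 genes 0 were called, and their medians were -0.23 and -0.21.

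Of the tubule's own lists, 14 principal cell genes summed to 18947 to 21789 in control libraries, 15660 to 18028 with the tumour and 18162 to 20577 with ITP knockdown. In yki3SA against control 0 of these were called higher and 6 lower, beside 16.2% and 14.0% of all tested genes. In yki3SA+ITP-i against yki3SA 6 were called higher and 0 lower, beside 10.6% and 10.1%, while ct itself was not called. The genes Irk3, Eglp2, Eglp4 and Best2, given above among the transporters and channels, are in this list too, so that the 2 lists are not independent. The 11 stellate cell genes, with kcc left out, summed to 1719 to 1886 in control libraries, 1681 to 1853 with the tumour and 1435 to 1673 with ITP knockdown. The sums of both lists were taken without TMM factors. Of 10 stellate cell genes tested, 1 was called higher and 3 lower in yki3SA against control, beside 16.2% and 14.0%. With TMM factors their median log2 fold change was -0.32, beside 0.07 over all tested genes. Drip and Prip, among those called lower, are also in the list of transporters and channels. The part of these shifts in the levels of the 6 genes was not tested beyond the covariate values.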

How the data were processed

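The data were 1 table of gene counts for 9 libraries of Malpighian tubules, deposited by the authors as raw counts per FlyBase gene identifier, with their annotation. TopHat, Cufflinks, HTSeq and DESeq are named without versions, per the submitters' processing notes; the build, gene models and strandedness were not given in the sources used here. Of 17611 identifiers, 17552 were matched to a symbol. Coordinates, exon lengths and neighbours came from Ensembl release 115 (BDGP6.54), so that lengths may differ from those the authors used.

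The counts were fitted in R 4.3.3 with edgeR 4.0.16 (filterByExpr, TMM factors, quasi-likelihood F-test, 9 libraries, 1 mean per group). P-values were adjusted by Benjamini-Hochberg over 10253 genes and called under 0.05. Standard errors are the fold change divided by the root of F. Shares and ratios were compared by exact permutation over libraries. Scripts were tested on simulated data. Library pairs of a group differed by far more than counting noise, so that none was treated as a duplicate. Depth limits genes under about 1 CPM most; intervals cover the spread between these libraries.

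The 6 genes, the gene lists and the alternatives were chosen with earlier results of these data known. Named were the 6 genes, the 5 (NKCC) or 3 nearest profiles, the neighbours on each side, every relative and Wnk partner, and the 2 called transport genes with the smallest p per direction. Alternatives were other size factors (upper quartile, total counts, DESeq2 1.42.0), limma 3.58.1 voom, DESeq2's test, filters, a robust fit, 2 groups alone, a replicate term, libraries left out and marker covariates. No sequence is shown, and lists for hemocytes, muscle, neurons, glia and trachea are given in the closing section. Python 3.11.15 was used for the summaries.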

Additional observations from a re-analysis of the deposited data

How the results depend on the processing

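The direction and call of NKCC in yki3SA against control and in yki3SA+ITP-i against yki3SA held in 22 of 22 alternatives each, with log2 fold changes of 3.31 to 4.24 and of -3.44 to -2.69. The difference of kcc between yki3SA+ITP-i and control stayed uncalled at 0.09 to 0.28 in 22 of 22, and the log2 ratio of NKCC to Ncc69 kept its direction in 9 of 9 alternatives per comparison, for example at 2.22 to 2.65 in yki3SA against control. Of these 9, counts without length and the replicate block leave the difference in that ratio unchanged by construction. For the results below, the cause of a change was not tested unless named. Leaving out 1 library (fewer libraries per fit) gave these log2 ranges in yki3SA against control: kcc 0.46 to 0.73, Wnk -0.0016 to 0.24, fray -0.50 to -0.28 and Mo25 -0.03 to 0.16. For yki3SA+ITP-i against yki3SA it gave Ncc69 -0.19 to 0.27, kcc -0.56 to -0.29, Wnk -0.31 to 0.05, fray 0.35 to 0.57 and Mo25 -0.17 to 0.02. For yki3SA+ITP-i against control it gave NKCC 0.52 to 0.72, Ncc69 0.90 to 1.18, Wnk -0.19 to 0.19, fray -0.01 to 0.12 and Mo25 -0.04 to 0.05. The share of NKCC differed there by -1.82 to 2.77 points. Called genes ranged from 2177 to 3150, 1028 to 2047 and 642 to 1095 in the 3 comparisons, against 3091, 2126 and 1077 with 9 libraries. Without both tumour libraries numbered 3, kcc was at 0.56 in yki3SA against control, Wnk at 0.02 and fray at 0.35 in yki3SA+ITP-i against yki3SA with 1362 genes called, and the share at -0.126 points in yki3SA+ITP-i against control.

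With the fat body level as covariate, the log2 fold changes in yki3SA against control were 1.38 for Ncc69, 1.10 for kcc, -0.01 for Wnk and -0.07 for Mo25, with 26 genes called; with the gut level they were 1.51, 0.83 and -0.14 for the first 3, with 134 called. Between yki3SA+ITP-i and yki3SA the fat body level gave fray 0.27 and Mo25 0.03 with 11 genes called, and the gut level fray 0.32 and Wnk 0.03 with 177 called. Against control, yki3SA+ITP-i then gave Ncc69 1.12 and 1.23, Wnk -0.03 and -0.11, Mo25 -0.03 and -0.0041, and 608 and 554 called genes. These covariates differ between the groups and leave less information on each.

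Among scalings, DESeq2 size factors, upper-quartile factors and DESeq2 itself put fray in yki3SA at -0.42, -0.44 and -0.42, and a 5 CPM filter at -0.42, each then called. Total counts put Mo25 at 0.40 in yki3SA and -0.30 with ITP knockdown, kcc at -0.63 and fray at 0.27 with ITP knockdown. Called genes in yki3SA against control were higher in 53.67% with TMM, 77.92% with total counts and 45.24% with upper-quartile factors; in yki3SA+ITP-i against yki3SA the shares were 51.22%, 28.25% and 63.12%, and in yki3SA+ITP-i against control total counts moved 60.63% to 71.89%. Ncc69 with ITP knockdown against yki3SA was 0.0029 under upper-quartile factors and 0.01 under the 5 CPM filter. In yki3SA+ITP-i against control Wnk was -0.02 with DESeq2 size factors, upper-quartile factors, DESeq2, limma-voom and the replicate block, -0.01 with no filter and -0.0014 with 2 groups alone, and Mo25 was -0.01 with DESeq2 size factors and DESeq2, -0.0037 with upper-quartile factors and -0.0013 with no filter. Counted without length, the share of NKCC differed by 32.7 points in yki3SA and by -32.3 points with ITP knockdown.

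The replicate block gave 3189, 2287 and 1137 called genes and changed no call of the 6 genes. Deviations of same-numbered libraries correlated at -0.082 to 0.17, over 0.1 in 3 of 9 pairs. Differently numbered pairs ran from -0.259 to 0.14. With 3 libraries per group these values cannot decide whether same-numbered libraries share a batch. The lower counts of Ncc69, down to 252 in a library, limit small differences.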

Other observations

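The remaining marker lists moved less than those of fat body, gut and ovary. Summed CPM of the library total over 13 hemocyte genes were 267 to 307 in control libraries, 296 to 340 with the tumour and 282 to 316 with ITP knockdown, with 1 of 12 tested called higher and 5 lower in yki3SA against control. Over 13 muscle genes they were 851 to 919, 1079 to 1147 and 1092 to 1438, with 1 called higher and 0 lower. Over 10 neuronal genes they were 39.9 to 48.6, 39.3 to 49.4 and 41.7 to 56.6, with 0 of 9 tested called in yki3SA against control. Over 7 glial genes they were 562 to 631, 418 to 538 and 521 to 603, with 2 called lower, and over 6 tracheal genes 25.4 to 33.1, 25.5 to 30.7 and 34.0 to 39.0, with 1 called higher and 1 lower. Median log2 fold changes in yki3SA against control were -0.91, -0.25, -0.20, -0.33 and -0.59 in this order of lists. The mean sums of hemocyte and muscle genes were higher in yki3SA than in control, while the medians were below 0. These sums were taken without TMM factors and the medians with them. The factors were 0.879 to 0.951 in control and 1.06 to 1.21 in yki3SA libraries, so that the 2 directions cannot be compared. Of all tested genes 16.2% were called higher and 14.0% lower in yki3SA against control. In yki3SA+ITP-i against yki3SA, 5 of the 13 muscle genes were called higher and 0 lower, beside 10.6% and 10.1% of all tested genes.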
